A study of Mus musculus with 20 samples.

Results

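The genes described here are the neighbours of Egfl7 on mouse chromosome 2, in neurospheres from Egfl7 knockout and wild-type mice. Members were all genes of the deposited gene table whose lower coordinate lies within about 2 Mb on either side of that of Egfl7. Egfl7 itself, Notch1 and genes whose names start with Col, Rpl, Snor or Mir were left out, which removed 12 of the 164 genes in the window. The remaining 152 members, of 36724 genes in the table, run from Cacna1b at chr2:24603860-24763195 to Gtf3c5 at chr2:28566245-28583746, in the coordinates deposited with the table (GRCm38). Egfl7 lies at chr2:26581028-26592682 on the plus strand, with 98 members on its lower-coordinate side and 54 on its higher-coordinate side. The choice used position and name only, and no measured value.

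Neurospheres are free-floating clusters that neural stem and progenitor cells form in culture. The spheres were grown, untreated, in medium with EGF and FGF from the subventricular zone (SVZ) or the hippocampus of adult mice of C57BL6 background. SVZ spheres of the first sphere round, harvested on culture day 3, gave 3 Egfl7 knockout and 3 wild-type libraries, all from male donors. First-round hippocampal spheres, called HC1 here, were harvested on day 5 and gave 3 libraries from male knockouts and 3 from female wild types; in HC1 the genotypes therefore differ in sex too, and these cannot be told apart. Second-round hippocampal spheres, HC2, were harvested on day 5 and gave 4 libraries from male knockouts and 4 from male wild types. Each library of a group carries its own mouse number, but numbers recur across groups with different sexes, so equal numbers need not mean the same animal. The sources used here do not give which part of Egfl7 was deleted, or in which strain.

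Egfl7 encodes a secreted protein best known from blood vessel endothelium, where it takes part in vessel growth, and it has been described as a modulator of Notch signalling. Genes beside a deleted gene are of interest in knockout mice because a deletion can remove DNA that regulates neighbours, and because a stretch of chromosome from the strain in which the allele was made is inherited with it. The region around Egfl7 is dense in genes. It holds Notch1, the Notch antagonist Nrarp, a run of lipocalin genes, which encode small carriers of fatty molecules, and the surfeit cluster, a tightly packed group of mostly housekeeping genes.

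The values are RPKM, a level per gene length in which a gene's reads are divided by its length and by all reads mapped in that library. Library depth, read from the smallest step between low values, was about 11700000 to 13800000 mapped reads in the first-round libraries and 17800000 to 31300000 mapped reads in HC2, and between 19109 and 22204 genes had a value. Differences are on the log2(RPKM + 1) scale, which understates the change of low genes. Genes were tested that reached 0.5 RPKM in 3 or more libraries out of 20, and these are called kept. Tests are two-sided limma tests with Benjamini-Hochberg adjustment over all 16403 kept genes, and a gene is called below an adjusted p of 0.05. In bulk libraries of this kind fewer cells of a type and less RNA per cell cannot be told apart. Nothing in the labels says whether libraries of a group came from separate cultures beyond their mouse numbers, so p-values measure the spread between these libraries.

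Of the 152 members, 84 were kept, 59 on the lower and 25 on the higher side, and 24 members had no value in any library. The kept share was 55.3% of the members against 44.7% of all genes, and the median kept member averaged 22.5 RPKM against 13.2 RPKM for the median kept gene. The highest averages were those of Phpt1, a phosphohistidine phosphatase, at 202.8 RPKM, the tubulin gene Tubb4b at 168.9 RPKM, the transcriptional coactivator gene Edf1 at 105.9 RPKM, the endoplasmic reticulum mannosidase gene Man1b1 at 93.4 RPKM and Ptgds, a lipocalin that makes prostaglandin D2, at 91.8 RPKM. Of 13 members in the list of lipocalins and complement C8g, only Ptgds and C8g passed the filter. The other lipocalins and odorant-binding proteins of the region are known from epididymis, nose and other secretory tissues.

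Egfl7 itself was at 0 RPKM in all 7 hippocampal knockout libraries, against 0.566 to 1.34 RPKM in the 3 HC1 wild types and 0.996 to 1.59 RPKM in the 4 HC2 wild types. The difference was -1.05 over both hippocampal rounds (two-sided exact permutation p = 0.00143, the smallest the labels allow). In the SVZ, 2 libraries went against their labels: Egfl7 was at 2.86 RPKM in the library labelled SVZ knockout replicate 2 and at 0 RPKM in that labelled SVZ wild type replicate 3. Elsewhere in the SVZ it was at 0.094 and 0 RPKM in knockouts, against 1.73 and 2.99 RPKM in wild types. The SVZ genotype comparison was therefore repeated without these 2 libraries, which leaves 2 of each genotype. Endothelial markers were close to absent: the 10 genes of that list summed to at most 8.23 RPKM in any knockout and 7.08 RPKM in any wild-type library. Cldn5 was at 0 in every library except among HC2 knockouts, and Cdh5 in every library except among HC1 wild types. The 10 neural stem and progenitor markers summed to between 6950 and 14300 RPKM.

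The first question was whether any neighbour differed with the Egfl7 genotype. No difference passed the test: 0 of the 84 kept members were called in the SVZ, in HC1, in HC2 or over both hippocampal rounds. The background was also near 0, with 0.0122% of all kept genes called in the SVZ, 0.0122% in HC1, 0.0244% in HC2 and 0.0305% over both rounds. At an unadjusted p under 0.05, limma picked 2 members in the SVZ (2.38%, against 2.31% of all kept genes), 4 in HC1 (4.76% against 3.94%), 8 in HC2 (9.52% against 3.93%) and 8 over both rounds (9.52% against 5.91%). The smallest adjusted p of any member was 1 in the SVZ, 0.976 in HC1, 0.988 in HC2 and 0.75 over both rounds. Leaving out both SVZ libraries that go against their labels also gave 0 called members. At an unadjusted limma p under 0.05 it gave 3 of the 84 members, a share above the 1.66% of all kept genes.

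In the knockouts 40 of the 84 members were higher and 44 lower in the SVZ, 41 and 43 in HC2, and 34 and 50 in HC1, where lower members were more frequent. Over both rounds 37 were higher and 47 lower. The median member difference was -0.0056 in the SVZ, -0.041 in HC1 and -0.0024 in HC2, beside -0.0021, -0.013 and 0.00045 for all kept genes. The median size of the difference, whatever its sign, was 0.074 in the SVZ, 0.164 in HC1 and 0.126 in HC2, beside 0.096, 0.135 and 0.113 for all kept genes. Without the 2 SVZ libraries of doubtful label 40 members were again higher and 44 lower in the SVZ, with a median difference of -0.010 and a median size of 0.080. The precision bounds what could have been missed in the hippocampus. There 72 of the 84 members in HC1, 79 in HC2 and 83 over both rounds had a 95% interval between -1 and 1. In the SVZ 79 had such an interval, but the fit holds both libraries of doubtful label. The SVZ intervals thus do not bound a knockout effect, and such counts were not taken without these libraries. Differences beyond 1 in size on the log2(RPKM + 1) scale were thus outside the interval for most kept members. For low genes this does not bound a 2-fold change. The full loss of Egfl7 in HC1, from a mean of 0.993 RPKM to 0, was -0.97 on this scale. Intervals as narrow as -0.5 to 0.5 were reached by 47, 41 and 47 members in the SVZ, HC1 and HC2, with the same limit in the SVZ.

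The widest knockout difference in HC1 was -0.90, for Entpd2, an ectonucleotidase that splits extracellular ATP, a gene singled out after its values were seen. Entpd2 had 0.056, 0.173 and 0.165 RPKM in HC1 knockouts, against 3.10, 1.06 and 0.104 RPKM in HC1 wild types, so the groups overlapped (95% interval -2.40 to 0.61, adjusted p = 0.976). In HC2 it ran from 0.265 to 4.56 RPKM in knockouts and from 0.212 to 14.5 RPKM in wild types.

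**Figure D1:**
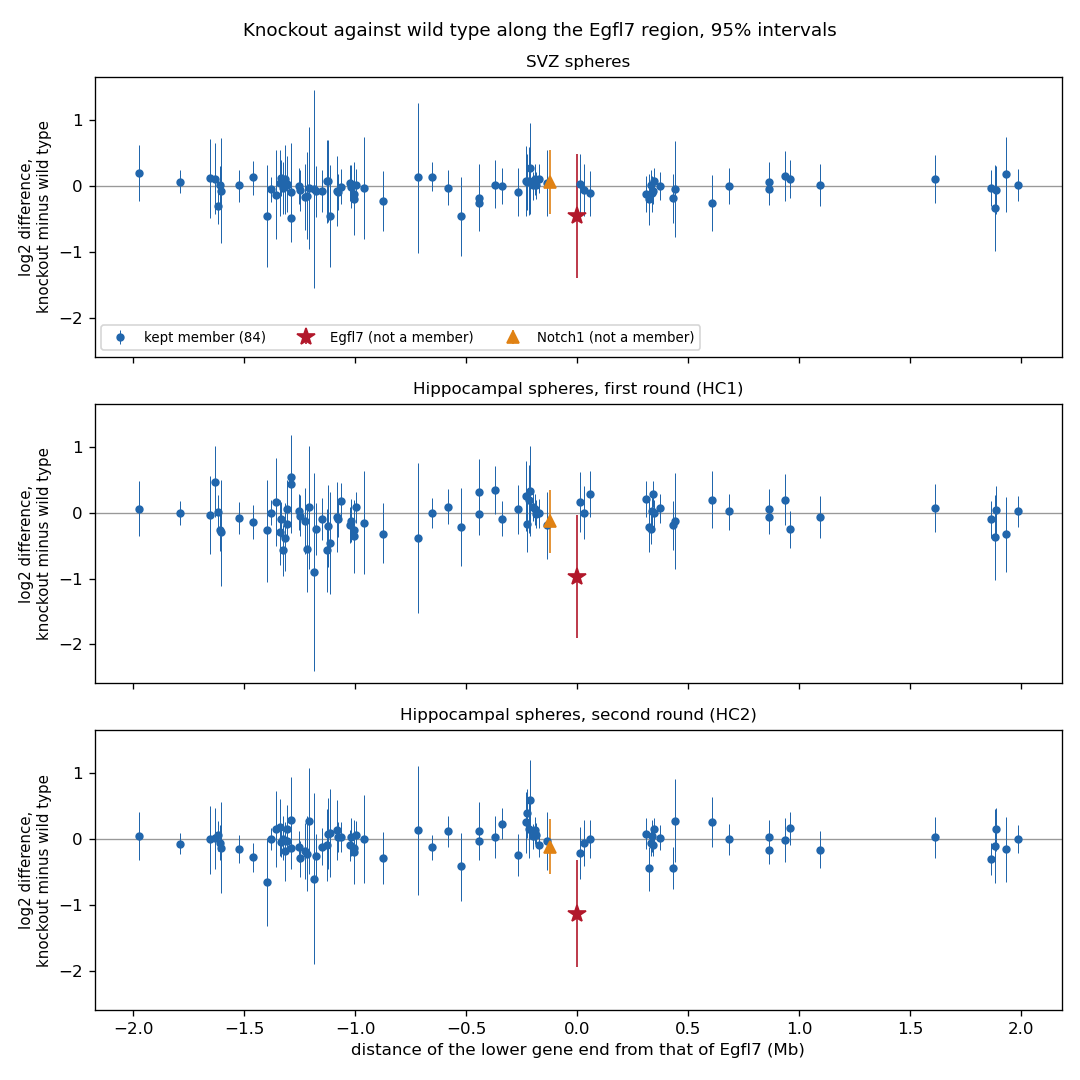
Knockout minus wild type difference (log2(RPKM + 1) scale) against distance of the lower gene end from that of Egfl7 (Mb), in panels for the SVZ, HC1 and HC2; dots are the 84 kept members, the star is Egfl7, the triangle is Notch1 and bars are 95% intervals. Members lie between -0.90 and 0.60 on both sides of 0, and Egfl7 lies at -0.97 in HC1 and -1.13 in HC2.

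The differences were then set against distance from Egfl7. Within 100 kb lie 9 members, of which only Agpat2, Fam69b and Snhg7 were kept, all on the higher-coordinate side. Their median size of difference was 0.06 in the SVZ, 0.16 in HC1 and 0.06 in HC2. For the 23 kept members between 100 and 500 kb these medians were 0.07, 0.17 and 0.13 in the SVZ, HC1 and HC2. For the 13 between 500 kb and 1 Mb they were 0.11, 0.15 and 0.12, and for the 45 farther out they were 0.07, 0.16 and 0.13. The sizes on this scale thus lie close together in the 4 bins, and the signed medians ran from -0.10 to 0.16. With a pseudocount of 0.1, which weights low genes such as Agpat2 more, the median sizes in HC1 were 0.31, 0.21, 0.17 and 0.17 from the nearest to the farthest bin, and so fell with distance. The nearest bin, which holds only 3 genes, then had a signed median of 0.31 in HC1, against -0.06 in the SVZ and in HC2. No such order appeared at that pseudocount in the SVZ, at 0.06, 0.10, 0.14 and 0.09, or in HC2, at 0.06, 0.13, 0.13 and 0.15. Without the 2 SVZ libraries of doubtful label the SVZ sizes were 0.07, 0.10, 0.13 and 0.08.

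The nearest gene with a value is Agpat2 (chr2:26593057-26604417, minus strand), which makes phosphatidic acid by acylating lysophosphatidic acid. Its 3′ end faces that of Egfl7, and its lower coordinate is 12.03 kb from that of Egfl7. It was low throughout, with 1.47, 2.05 and 1.22 RPKM in SVZ knockouts against 1.00, 1.87 and 1.72 RPKM in SVZ wild types. In HC1 it had 0.891, 1.024 and 1.27 RPKM in knockouts against 0.747, 1.42 and 0.462 RPKM in wild types. In HC2 it had 0.383, 0.782, 0.538 and 1.06 RPKM in knockouts against 0.46, 1.021, 1.27 and 1.06 RPKM in wild types. The genotypes overlapped in each of the 3 settings, and the differences of 0.03, 0.16 and -0.21 in the SVZ, HC1 and HC2 had standard errors of 0.22, 0.22 and 0.19.

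Fam69b, now Dipk1b, a kinase-like gene 28.83 kb from Egfl7, was steadier. It had 20.3, 19.7 and 21.1 RPKM in SVZ knockouts against 21.5, 22.0 and 20.4 RPKM in SVZ wild types. In HC1 it had 22.4, 21.4 and 18.1 RPKM in knockouts against 19.2, 19.9 and 22.7 RPKM in wild types, and in HC2 it ran from 19.4 to 40.3 RPKM in knockouts and from 22.9 to 32.6 RPKM in wild types. The differences of -0.06 in the SVZ, 0.00 in HC1 and -0.06 in HC2 left the genotypes overlapping throughout. Snhg7, a host gene of small nucleolar RNAs 56.15 kb away, had 12.3, 12.5 and 12.6 RPKM in HC1 knockouts against 9.91, 8.32 and 12.2 RPKM in HC1 wild types. These groups did not overlap, yet in HC2 the knockouts had 14.6, 11.7, 9.94 and 9.48 RPKM against 11.9, 9.43, 13.1 and 10.8 RPKM in wild types, which did. Its differences were -0.11 in the SVZ, 0.29 in HC1 and 0.00 in HC2.

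On the other side the nearest kept genes start 135.0 to 211.4 kb below Egfl7, beyond Notch1. Sec16a, which organises the exit sites of the endoplasmic reticulum, differed by 0.11 in the SVZ, -0.01 in HC1 and -0.08 in HC2. Inpp5e, a phosphoinositide phosphatase of the primary cilium, differed by 0.01, -0.02 and 0.07 in the same order. Pmpca, a subunit of the peptidase that trims imported mitochondrial proteins, differed by 0.10, 0.05 and 0.14, and Sdccag3, now Entr1, an endosomal gene, by 0.01, 0.08 and 0.05. These 4 genes vary little between libraries, and their standard errors were at most 0.11. The predicted gene Gm13562 stood apart with differences of 0.27 in the SVZ, 0.33 in HC1 and 0.60 in HC2, and of 0.47 over both hippocampal rounds (adjusted p = 0.75). It had 6.66, 3.999, 5.37 and 2.52 RPKM in HC2 knockouts against 5.45, 2.03, 1.26 and 2.65 RPKM in HC2 wild types, so the genotypes overlapped. Gm13562 lies on the opposite strand within Snapc4, and the sources used here do not give whether strand was used in counting, so reads of the 2 genes may not be told apart.

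**Figure D2:**
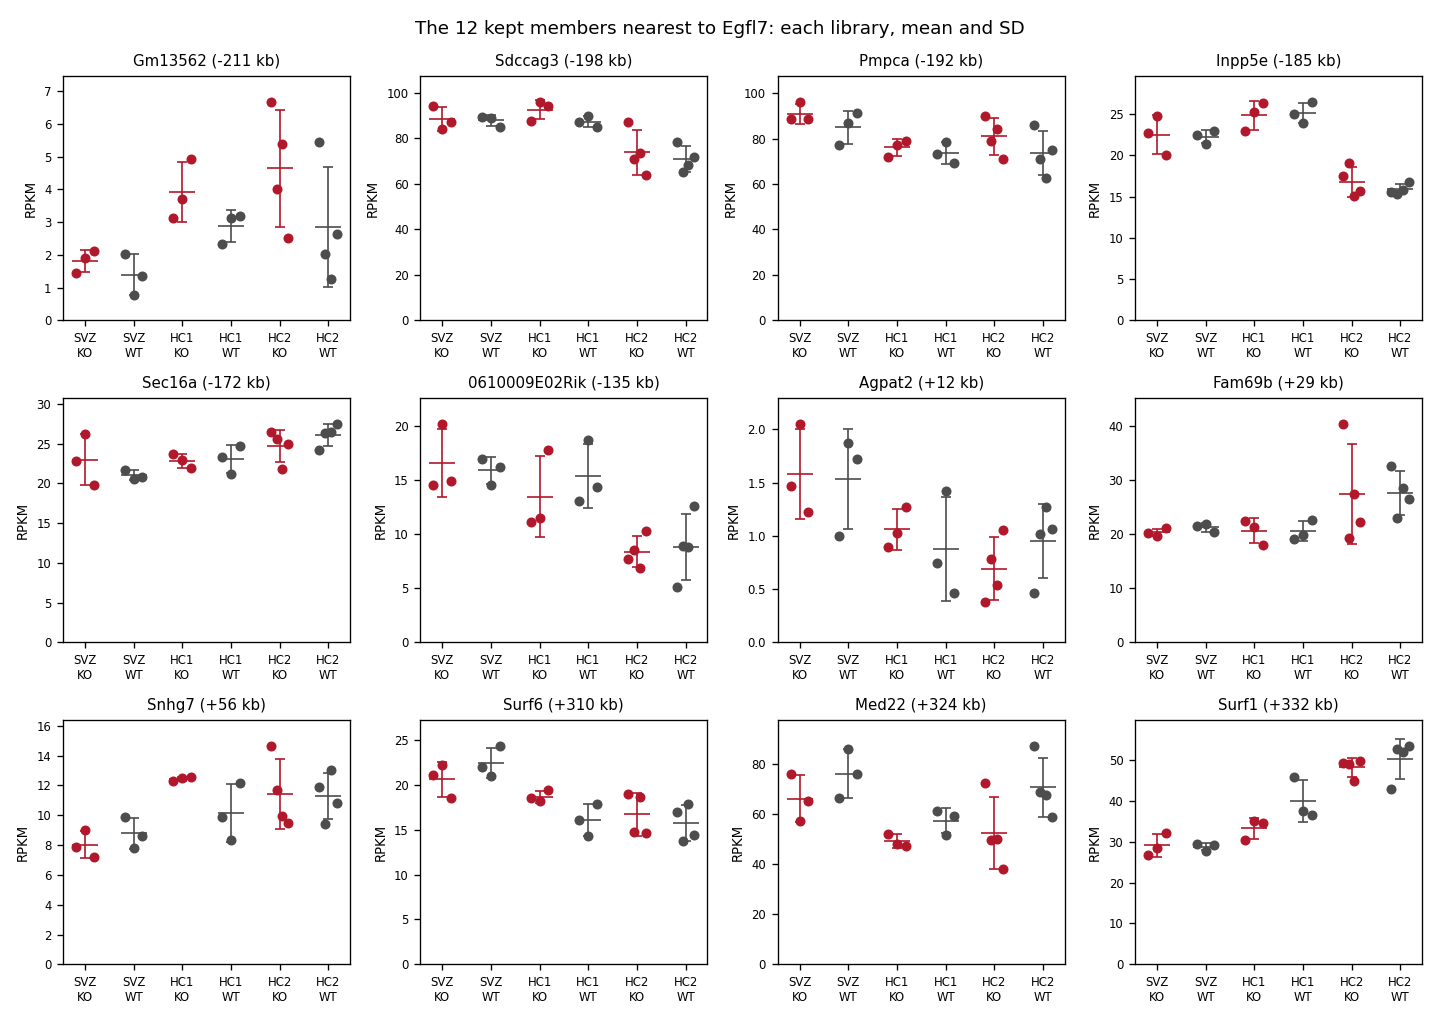
RPKM in every library for the 12 kept members nearest to Egfl7, 6 on each side, 1 panel per gene with its distance (kb); dots are libraries (knockout KO in red, left of wild type WT in grey), horizontal lines are group means and bars are SD. Knockout and wild-type dots of Agpat2 and Fam69b overlap in the SVZ, HC1 and HC2, and those of Snhg7 separate in HC1.

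Groups that do not overlap were about as frequent among members as among all genes. In the SVZ 7 of 84 members had no overlap between genotypes (8.33%, against 7.76% of all kept genes). Of these, Ralgds, which activates Ral GTPases, was higher in knockouts, and Dph7, Grin1os, Ptgds, Gm996, Nacc2 and Sardh were lower. Without the 2 libraries of doubtful label, with 2 against 2 libraries left, 26 members had no overlap (31% against 30% of all kept genes). The 7 members above are among these by construction, as groups that do not overlap stay apart when libraries are left out. Their signs could not change. In HC1, where donor sex differs as well, 13 members had none (15.5% against 13.7%), 8 higher and 5 lower. In HC2 the only such member was Nrarp (1.19% against 1.13%). No member separated in both hippocampal rounds in the same direction, which 0.0732% of all kept genes did.

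The surfeit gene Med22, a subunit of the Mediator complex, came closest over both hippocampal rounds. It had 52.3, 48.3 and 47.2 RPKM in HC1 knockouts against 61.3, 51.7 and 59.4 RPKM in HC1 wild types. In HC2 it had 72.4, 49.7, 50.0 and 38.3 RPKM in knockouts against 87.2, 68.8, 67.9 and 59.0 RPKM in wild types. The HC2 groups overlapped through 1 knockout library, replicate 1, which was above 3 wild types. The difference was -0.22 in HC1, -0.44 in HC2 and -0.33 over both rounds (unadjusted p = 0.015, adjusted p = 0.75), and it was -0.20 in the SVZ (-0.10 without the 2 libraries of doubtful label). Cacfd1, a surfeit-list gene for a membrane protein with a calcium channel flower domain, differed by -0.31 over both rounds (unadjusted p = 0.0163, adjusted p = 0.75). Other surfeit genes lie between it and Med22. Cacfd1 had 17.0, 13.9, 8.02 and 10.6 RPKM in HC2 knockouts, with 3 of 4 below every wild type, against 18.5, 15.2, 15.9 and 16.5 RPKM in HC2 wild types. The other surfeit genes among the nearest members, Surf6 and Surf1, differed by 0.21 and -0.25 in HC1 and by 0.08 and -0.06 in HC2. Across the surfeit cluster 8 of 10 listed members were kept. Besides Med22 and Cacfd1 these are Surf6, which acts in the nucleolus, Surf1, an assembly factor of cytochrome c oxidase, Surf2, Surf4, a cargo receptor of the endoplasmic reticulum, Rexo4, an exonuclease gene, and the sugar transporter gene Slc2a6. The cluster showed no shared direction, with 5 members higher and 3 lower over both rounds and 0 called.

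Grin1os, the antisense transcript of the NMDA receptor gene Grin1, differed in opposite directions in the first-round settings. It had 2.00, 1.52 and 1.70 RPKM in SVZ knockouts, all below the 3.98, 2.38 and 2.34 RPKM in SVZ wild types. In HC1 it had 3.05, 2.41 and 3.54 RPKM in knockouts, all above the 1.35, 2.06 and 1.84 RPKM in wild types. The differences were -0.49 in the SVZ (adjusted p = 1; -0.53 without the 2 libraries of doubtful label) and 0.54 in HC1 (adjusted p = 0.976). In HC2 the genotypes overlapped, at 0.213 to 0.693 RPKM in knockouts and 0.371 to 0.606 RPKM in wild types. Grin1os overlaps Grin1 by 7709 bases on the other strand, so the same limit on shared reads holds as for Gm13562. Tmem203, a small membrane protein gene, had 11.1, 14.6 and 14.3 RPKM in HC1 knockouts, all below the 27.6, 16.2 and 18.2 RPKM in HC1 wild types, a difference of -0.57 that became -0.35 without HC1 wild type replicate 1.

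The 4 kept members listed for the Notch pathway also gave 0 calls between genotypes. Nrarp, a target of Notch that damps its signal, had 42.9, 46.2, 26.8 and 28.2 RPKM in HC2 knockouts, all below the 51.3, 48.4, 47.3 and 80.7 RPKM in HC2 wild types. The HC2 difference was -0.65 (SE 0.32, adjusted p = 0.988), in a gap of about 1 RPKM between the nearest libraries. In HC1 Nrarp had 37.2, 38.0 and 30.3 RPKM in knockouts against 45.6, 31.6 and 53.1 RPKM in wild types, which overlapped (difference -0.27). In the SVZ it had 31.2, 9.48 and 35.6 RPKM in knockouts against 35.1, 31.8 and 25.7 RPKM in wild types (difference -0.45), and the lowest of these was the library labelled SVZ knockout replicate 2. The SVZ difference rests on that library: without both libraries of doubtful label it was -0.00 (SE 0.30), at 31.2 and 35.6 RPKM in knockouts against 35.1 and 31.8 RPKM in wild types. The other 3 members, the adaptor gene Traf2, the G protein modulator gene Gpsm1 and the bromodomain gene Brd3, differed by 0.11, -0.10 and -0.12 over both rounds. Notch1, whose gene lies between the nearest kept members on the lower side and Egfl7, differed by -0.12 over both rounds (two-sided exact permutation p = 0.374).

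The remaining lists, each with 0 called members in every genotype comparison, behaved likewise. Of 12 kept chromatin and transcription genes 5 were higher and 7 lower over both rounds. Ehmt1, a histone H3 lysine methyltransferase, differed by -0.03 and Wdr5, a core subunit of histone methyltransferase complexes, by 0.09. Of 8 neuronal genes 4 were higher and 4 lower, of 8 mitochondrial genes 4 and 4, of 9 cytoskeleton, centrosome and cilium genes 6 and 3, of 9 genes of the secretory path 3 and 6, and of 6 lipid metabolism genes 1 and 5. The difference of the knockout effect between the SVZ and HC2 was called for 0 members (0.0305% of all kept genes), with 2 at an unadjusted limma p under 0.05 (2.38%, against 1.98% of all kept genes). That between HC1 and HC2 was called for 0 members (0.0244%), with 4 at an unadjusted limma p under 0.05 (4.76% against 2.57%).

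The second set of comparisons asked how the same neighbourhood varies with brain region and sphere round, in the male knockouts. Between hippocampal rounds it varied widely: 32 of 84 members were called in HC2 against HC1, 15 higher and 17 lower. That is 38.1%, against 38.3% of all kept genes called in the same comparison (16.1% higher and 22.3% lower). Among the higher members, Gm36591, Card9 and 4932418E24Rik passed the filter only through HC2 libraries. The round cannot be told apart from the library set, since all HC2 libraries were deeper. Shifting all libraries to 1 median moved the median of all genes by 0.105 and gave 39 called members, 25 of them higher, and quantile normalization gave 36, 22 of them higher. The balance of higher and lower members thus depends on the scaling. Of the 32 members called, Card9, Ndor1, Ppp1r26 and 0610009E02Rik were not called under 1 or both of these scalings, and all 32 kept their sign under both.

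**Figure D3:**
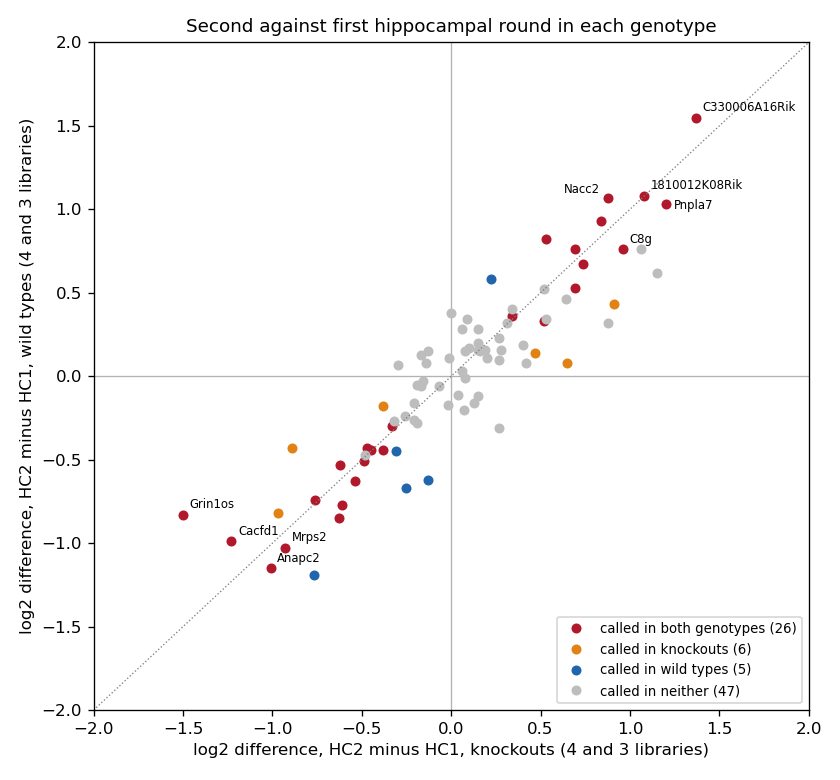
HC2 minus HC1 difference (log2(RPKM + 1) scale) of each of the 84 kept members in knockouts, on the horizontal axis, and in wild types, on the vertical axis; colours show in which genotype a member was called, and the dotted line marks equal differences. The 32 members called in knockouts have the same sign in wild types, from Grin1os at -1.50 to C330006A16Rik at 1.37 in knockouts.

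The wild types, which share no library with the knockouts, gave the same signs. All 32 members called in knockouts had the same sign in wild types, where 31 members were called, 13 higher and 18 lower (36.9%, against 38.2% of all kept genes). The 26 members called in both are 81.2% of the knockout calls and 83.9% of the wild-type calls. The same shares of signs and calls were not taken over all kept genes, so this agreement cannot be called particular to the members. The 6 called in knockouts and not in wild types are Zmynd19 (-0.43 in wild types, adjusted p = 0.164), Grin1 (-0.82, adjusted p = 0.0594), Ppp1r26 (-0.18, adjusted p = 0.248), 4932418E24Rik (0.14, adjusted p = 0.395), BC029214 and Card9. The test of the difference between the genotypes is the one between the HC1 and HC2 knockout effects, which called 0 members. The wild-type comparison sets male HC2 against female HC1 donors. Cell cycle genes moved with the rounds: the 20 listed genes summed to 253 to 1327 RPKM in HC2 knockouts against 1175 to 1708 RPKM in HC1 knockouts, and they were lowest in HC2 knockout replicates 4 and 8. With the mean of this list as a covariate 36 members were called, 20 higher and 16 lower, and of the 32 members Grin1 alone was no longer called.

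Among the members that fell in HC2, the gene with the smallest p was Anapc2, the cullin subunit of the anaphase-promoting complex. It had 38.6, 37.3, 36.2 and 42.1 RPKM in HC2 knockouts against 74.9, 82.1 and 79.1 RPKM in HC1 knockouts, with no overlap (difference -1.01, SE 0.10, adjusted p = 5.49e-07). The wild types gave 34.2, 41.6, 42.9 and 39.5 RPKM in HC2 against 104.4, 81.7 and 81.2 RPKM in HC1, a difference of -1.15. Cacfd1 fell to between 8.02 and 17.0 RPKM in HC2 knockouts, against 27.3 to 31.0 RPKM in HC1 knockouts (difference -1.23, adjusted p = 1.76e-05). Grin1os had the largest change, -1.50 (adjusted p = 1.47e-06), and Grin1 itself, the obligatory NMDA receptor subunit, fell by 0.97 on the log2 scale (adjusted p = 0.0286). Grin1 ranged from 1.87 to 6.14 RPKM in HC2 knockouts against 6.31 to 9.03 RPKM in HC1 knockouts.

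Both kept members that encode ribosomal proteins of the mitochondrion fell. Mrps2 had 30.2, 21.0, 31.9 and 20.9 RPKM in HC2 knockouts against 49.9, 44.7 and 54.1 RPKM in HC1 knockouts (difference -0.93, adjusted p = 0.00024). Mrpl41 had 51.7, 48.0, 49.9 and 53.4 RPKM in HC2 knockouts against 76.2, 93.1 and 69.0 RPKM in HC1 knockouts (difference -0.63, adjusted p = 0.00144). Over the mitochondrial list 2 genes rose and 3 fell of 8, at a median of 0.06, beside the 16.1% of all kept genes that rose and the 22.3% that fell. Those that rose were Surf1 and Sardh, which breaks down sarcosine, and the other one that fell was Ndor1, an oxidoreductase of iron-sulfur protein assembly. Ndor1 was not called under either other scaling.

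Of the 12 listed chromatin and transcription genes, 4 fell and 2 rose, at a median of -0.18, beside the same 22.3% and 16.1% of all kept genes. Besides Anapc2, a ubiquitin ligase subunit that the list includes, those that fell were Zmynd19 (-0.89, adjusted p = 0.00694), Gtf3c5, a subunit of RNA polymerase III factor TFIIIC (-0.76, adjusted p = 2.97e-05), and Brd3 (-0.62, adjusted p = 0.000267). Zmynd19 had 25.1, 12.5, 24.8 and 14.4 RPKM in HC2 knockouts, all below the 38.9, 30.8 and 35.3 RPKM in HC1 knockouts. The 2 that rose were transcription regulators. Nacc2, a repressor with a BTB domain, had 34.2, 51.3, 42.8 and 61.0 RPKM in HC2 knockouts, all above the 24.2, 30.6 and 20.5 RPKM in HC1 knockouts (difference 0.88, adjusted p = 0.0138). Rxra, the nuclear receptor for retinoids that pairs with many other receptors, had 15.0, 24.4, 20.0 and 21.9 RPKM in HC2 knockouts against 11.5, 9.96 and 10.9 RPKM in HC1 knockouts (difference 0.84, adjusted p = 0.000163).

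Pnpla7, a lysophospholipase, also rose. It had 6.95, 14.8, 6.79 and 22.6 RPKM in HC2 knockouts, all above the 3.94, 4.31 and 4.85 RPKM in HC1 knockouts (difference 1.20, adjusted p = 0.0128). The 2 highest of these libraries, replicates 4 and 8, are those of lowest cell cycle level, and with the cell cycle mean as a covariate the difference was 0.67 (adjusted p = 0.0027). C8g, the lipocalin-like chain of complement component 8, had 2.91, 3.50, 4.05 and 5.12 RPKM in HC2 knockouts against 1.60, 1.78 and 1.13 RPKM in HC1 knockouts (difference 0.96, adjusted p = 0.0038). Paxx, listed as BC029214, a factor of DNA end joining, differed by 0.91 in knockouts (adjusted p = 0.016) but by 0.43 in wild types (adjusted p = 0.242). Nsmf, which carries signals from NMDA receptors to the nucleus, and the signalling gene Vav2 rose by 0.69 (adjusted p = 7.33e-05) and 0.34 (adjusted p = 0.0368). C330006A16Rik, now Tmem250-ps, and the clone 1810012K08Rik overlap by 1414 bases on opposite strands and rose together by 1.37 (adjusted p = 0.000122) and 1.08 (adjusted p = 1.24e-05), so shared reads may not be told apart. The same limit holds for C8g, which overlaps Fbxw5 by 1160 bases, and for BC029214, which overlaps Clic3 by 1934 bases, on opposite strands.

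Nearer to Egfl7, Inpp5e fell by 0.54 on the log2 scale (adjusted p = 0.000203), Sdccag3 by 0.33 (adjusted p = 0.0108) and the clone 0610009E02Rik by 0.61 (adjusted p = 0.0418). Gpsm1, which helps orient the mitotic spindle, rose by 0.53 (adjusted p = 0.0161). Agpat2, Fam69b and Snhg7, the 3 kept members within 100 kb, were not called in the main fit. For Fam69b this depends on the setting, as its difference of 0.34 (adjusted p = 0.135) was called under both other scalings. It was 0.45 after shifting to 1 median (adjusted p = 0.0278) and 0.46 after quantile normalization (adjusted p = 0.025). With the cell cycle covariate it was 0.50 (adjusted p = 0.0178). Of the 32 called members, 24 stayed called when any 1 of the 7 libraries was left out, and 8 did not, all with their sign kept. Nacc2 was lost without HC1 knockout replicate 3 (adjusted p = 0.0689). BC029214 was lost without that library or HC2 knockout replicate 4 or 8 (adjusted p 0.0501 to 0.058), and Grin1 without any of these 3 or HC1 knockout replicate 1 (0.0642 to 0.106). 0610009E02Rik was lost in 5 of the 7 cases, without HC1 knockout replicate 2 or 3 or HC2 knockout replicate 1, 4 or 7 (0.051 to 0.221). Gpsm1 was lost without HC1 knockout replicate 1 or 3 (0.0512 and 0.069), and Vav2 without either of these or HC2 knockout replicate 1 or 8 (0.0737 to 0.164). Ndor1 and Ppp1r26 were both lost without HC1 knockout replicate 2 (0.111 and 0.1) or HC2 knockout replicate 7 (0.0511 and 0.061). Of 9 kept genes of the secretory path 0 were called, beside 38.3% of all kept genes, with 8 higher and 1 lower, at a median of 0.15. This count depends on the scaling, since Fbxw5 and Surf4 were called as higher under both other scalings. Surf4 was also called in the wild types (0.58, adjusted p = 6.73e-05).

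In the deposited coordinates, 17 of 84 kept members have a start site head to head within 1000 bases of another kept gene. That is 20.2%, against 19.9% of all kept genes, and 8 pairs consist of 2 members. Such pairs can share 1 promoter region. Surf1 and Surf2, whose 5′ ends overlap, are the surfeit pair studied as a bidirectional promoter. Surf1 had 49.1, 49.0, 44.8 and 49.6 RPKM in HC2 knockouts, all above the 30.3, 35.0 and 34.6 RPKM in HC1 knockouts (difference 0.52, adjusted p = 0.00058). Surf2 had 32.2, 35.5, 30.9 and 28.5 RPKM in HC2 knockouts, all below the 40.4, 48.5 and 46.4 RPKM in HC1 knockouts (difference -0.49, adjusted p = 0.00411). The wild types gave 0.33 for Surf1 and -0.51 for Surf2.

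In 2 of the 8 pairs both genes were called, and in both pairs they moved in opposite directions. These shares were not taken over the head-to-head pairs of all kept genes, so they cannot be called particular to the members. Mrpl41 and Pnpla7, whose starts are 73 bases apart in the deposited coordinates, differed by -0.63 and 1.20, and their values are those given above. RefSeq places the Pnpla7 start farther from Mrpl41, just past chr2:24976032, so the distance in this pair depends on the annotation. Of the other pairs, 5 had 1 called gene and 1 had none. In the pair of Ssna1 and Anapc2, 48 bases apart, Ssna1, a small centrosomal protein gene, differed by 0.20 (adjusted p = 0.434) and Anapc2 by -1.01. Between genotypes none of the 16 genes in these pairs was called. Across the surfeit cluster Surf2, Cacfd1 and Rexo4 fell and Surf1 rose, of 8 kept genes, beside 38.3% of all kept genes called.

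**Figure D4:**
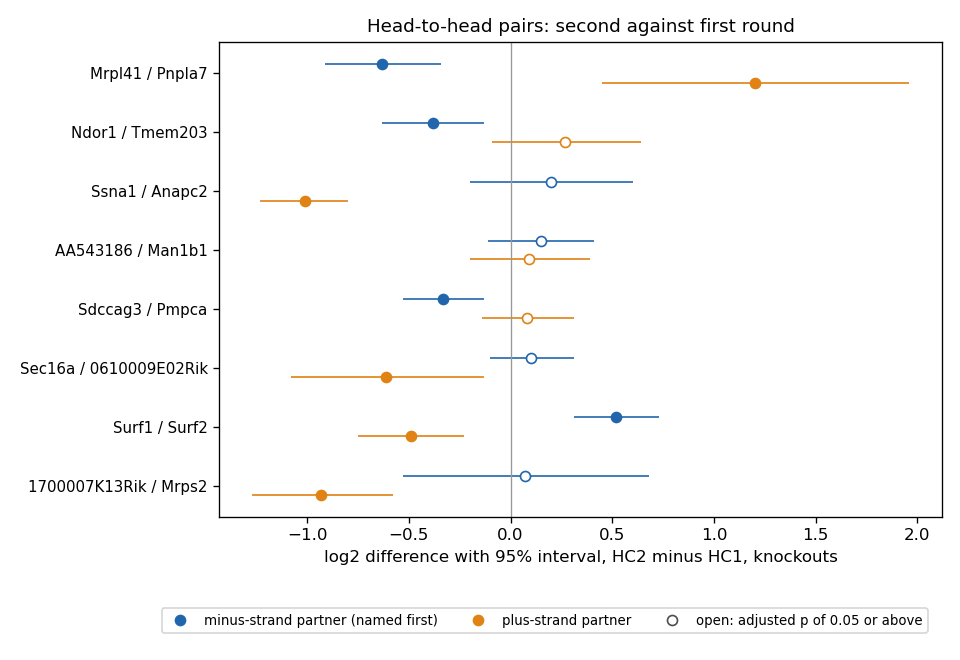
HC2 minus HC1 difference in knockouts (log2(RPKM + 1) scale) of both genes in each of the 8 head-to-head pairs of members; dots are genes (minus-strand partner blue, plus-strand partner orange, open where not called) and lines are 95% intervals. Mrpl41 and Pnpla7, and Surf1 and Surf2, lie on opposite sides of 0.

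The called members not yet given changed by smaller amounts or are little described. Sardh rose by 0.74 (adjusted p = 0.00554), the lncRNA Gm36591 by 0.69 (adjusted p = 1.06e-05), the innate immune adaptor gene Card9 by 0.65 (adjusted p = 0.0122) and 4932418E24Rik, now Ccdc187, by 0.47 (adjusted p = 0.00511). Rexo4 fell by 0.47 (adjusted p = 0.000689), Rabl6, a Rab-like GTPase gene, by 0.45 (adjusted p = 0.00287), Ppp1r26, a regulator of protein phosphatase 1, by 0.38 (adjusted p = 0.0204) and Ndor1 by 0.38 (adjusted p = 0.0171). Card9 differed by 0.08 in wild types (adjusted p = 0.768). Gm36591, Card9 and 4932418E24Rik reached 0.5 RPKM in HC2 libraries only, with at most 0.389, 0.151 and 0.212 RPKM in HC1 knockouts. They were kept only through the round in which they were called higher, so these calls carry no weight as support. Gm36591 also lies within Surf4 on the same strand, with an overlap of 5021 bases. Reads of these 2 genes may not be told apart even if strand was used.

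The RefSeq windows of 250 bases before the start were searched for letters of common promoter motifs, on both strands. The letters searched for were GGGCGG, known as the GC box. Also searched were CCAAT, which the factor NF-Y binds, then the common start-site element TATAAA, and lastly the core of sites for the factor YY1, AAGATGGC. RefSeq gave 88 windows for 78 of the 84 kept members. GGGCGG was in 58% of these windows, against 32.7% of all 32851 windows of that length, CCAAT in 21.6% against 33.8%, TATAAA in 4.55% against 12.4% and AAGATGGC in 1.14% against 1.56%. All windows include those of genes that were not kept, so these sets differ in more than position. The shares in windows of kept genes elsewhere were not taken, and the gaps cannot be called particular to this region. Among members called between rounds, GGGCGG was in 8 of 19 windows of those that rose and in 9 of 18 windows of those that fell, and CCAAT in 3 and 6. Printed here are the windows of the called members whose window ran into no gene model of a member, on GRCm38.p6, written 5′ to 3′ on the strand of the gene, with matches to the searched letters or their reverse complements in capitals. They are Nacc2 (chr2:26122812-26123061, minus strand), Vav2 (chr2:27427609-27427858, minus strand) and Zmynd19 (chr2:24949527-24949776, plus strand).
Nacc2: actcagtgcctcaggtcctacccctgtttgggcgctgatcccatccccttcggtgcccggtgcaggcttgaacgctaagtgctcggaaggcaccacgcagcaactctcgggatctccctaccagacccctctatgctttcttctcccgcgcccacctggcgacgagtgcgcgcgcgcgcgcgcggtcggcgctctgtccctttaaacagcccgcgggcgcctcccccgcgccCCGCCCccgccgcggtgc
Vav2: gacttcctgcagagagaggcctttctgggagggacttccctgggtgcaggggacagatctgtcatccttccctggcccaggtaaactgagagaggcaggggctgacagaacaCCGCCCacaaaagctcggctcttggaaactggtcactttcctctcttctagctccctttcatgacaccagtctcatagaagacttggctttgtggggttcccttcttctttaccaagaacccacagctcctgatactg
Zmynd19: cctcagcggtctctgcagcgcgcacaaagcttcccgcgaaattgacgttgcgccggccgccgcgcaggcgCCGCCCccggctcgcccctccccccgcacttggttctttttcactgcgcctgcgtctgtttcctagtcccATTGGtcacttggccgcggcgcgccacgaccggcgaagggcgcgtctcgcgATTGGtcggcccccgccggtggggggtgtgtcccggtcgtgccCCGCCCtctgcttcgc
Nacc2 and Vav2, which rose, each have 1 GC box match in this window, and Zmynd19, which fell, has 2, beside 2 CCAAT matches.

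Between regions fewer members were called. In SVZ knockouts against HC1 knockouts, which differ in culture day as well, 5 of 84 members were called (5.95%, against 7.06% of all kept genes), 1 higher and 4 lower (1.19% and 4.76%, against 2.63% and 4.43%). Nacc2 had 10.4, 8.24 and 11.4 RPKM in SVZ knockouts, all below the 24.2, 30.6 and 20.5 RPKM in HC1 knockouts (difference -1.23, adjusted p = 0.0164). Dpp7, a dipeptidyl peptidase of intracellular vesicles, had 7.87, 5.61 and 7.001 RPKM in SVZ knockouts, all below the 14.8, 14.9 and 17.8 RPKM in HC1 knockouts (difference -1.11, adjusted p = 0.0118). Gm996, now Ajm1, was near the floor in SVZ knockouts at 0.184, 0.08 and 0.188 RPKM, against 1.25, 1.03 and 1.20 RPKM in HC1 knockouts (difference -0.91, adjusted p = 0.0476).

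Snhg7 had 7.88, 9.03 and 7.21 RPKM in SVZ knockouts, all below the 12.3, 12.5 and 12.6 RPKM in HC1 knockouts (difference -0.58, adjusted p = 0.0404). Rxra was the only called member that was higher, with 16.9, 16.8 and 14.04 RPKM in SVZ knockouts against 11.5, 9.96 and 10.9 RPKM in HC1 knockouts (difference 0.52, adjusted p = 0.0471). The library labelled SVZ knockout replicate 2 is among these. Without it, and without both SVZ libraries that go against their labels, 0 members were called, and leaving out any other library of these 2 groups left 1 to 4. The calls of Snhg7 and Gm996 were lost without any 1 of the 6 libraries (adjusted p 0.0858 to 0.115 for Snhg7 and 0.08 to 0.161 for Gm996). That of Rxra was lost in 5 of the 6 cases, all but SVZ knockout replicate 3 (0.0939 to 0.169), and that of Nacc2 in 3, without SVZ knockout replicate 2 or HC1 knockout replicate 1 or 2 (0.0532 to 0.0933). That of Dpp7 was lost without SVZ knockout replicate 2 alone (0.076). Rxra and Gm996 were not called under either other scaling. In the wild types of the same regions, where HC1 donors are female, 12 members were called, 5 higher and 7 lower (14.3%, against 17.2% of all kept genes). The cell cycle list summed to 2577 to 2777 RPKM in SVZ knockouts against 1175 to 1708 RPKM in HC1 knockouts. With its mean as a covariate 8 members were called, 2 higher and 6 lower. Other settings of this comparison gave from 2 members without the filter to 30 with libraries of both genotypes compared.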

How the data were processed

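Per the labels' protocols, Trizol RNA lost its ribosomal part by depletion, and stranded libraries were captured on mouse exons and sequenced on a NovaSeq. The deposited values are linear RPKM per gene, per the file headers. Per the submitters' processing notes, the build was mm10 (GRCm38) and DESeq2 and FastQC 0.11.5 were among the tools. The sources used here do not give the aligner, counter or use of strand. A missing value was read as 0.

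limma 3.58.1 in R 4.3.3 was fitted to log2(RPKM + 1) of 20 libraries with 1 mean for each of 6 groups (14 residual degrees of freedom; eBayes with trend and robust), after tests on simulated data. Per-gene p-values come from this fit unless called exact. Depth was estimated from the RPKM of single reads, so it is approximate. Matches to RefSeq (GRCm38.p6) by gene ID were found for 144 of 152 members.

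Members, lists and tests were chosen with earlier results of these data known. Named are called members, the 6 nearest kept members on each side, the 5 of smallest p per knockout comparison or highest mean, those without overlap, and up to 4 examples a list; predicted genes only where called or nearest. Alternatives were the pseudocount, filter, scaling, array weights, covariates, left-out libraries, a replicate block and the groups fitted. The replicate numbers of the SVZ and HC1 did not pair the samples.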

Additional observations from a re-analysis of the deposited data

Results flagged for a closer look

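In groups of 4 libraries, 5 single values lay far from the other 3. Among 85 such groups, of 43 genes with Egfl7 and Notch1 included, chance flags about 1 in 20. Dph7, which acts in diphthamide synthesis, had 27.7 RPKM in HC2 knockout replicate 1, against 20.96 to 21.4 RPKM in the other HC2 knockouts. Surf1 had 44.8 RPKM in HC2 knockout replicate 7, below the 48.97 to 49.6 RPKM of the others. In the HC2 wild types, Surf1 had 42.8 RPKM in replicate 2, below the 51.9 to 53.3 RPKM of the others. Tubb4b had 161.4 RPKM in HC2 wild type replicate 2, above the 71.1 to 80.9 RPKM of the others. Grin1os had 0.371 RPKM in HC2 wild type replicate 5, below the 0.587 to 0.606 RPKM of the others.

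HC2 wild type replicate 2, which gave 2 of these values, also had the highest cell cycle mean of its group, 5.9 on the log2 scale, against 1.72 to 3.51 in the others. The part of the cell cycle level in the Surf1 and Tubb4b values was not tested.

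Grin1os differed by -0.49 between SVZ knockouts and wild types and by 0.54 between HC1 knockouts and wild types, with no overlap of genotypes in either, and the difference between these effects was not tested.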

How the results depend on the processing

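Between genotypes 0 members were called under every alternative run, including the pseudocount of 0.1, no filter, both other scalings, array weights, a cell cycle covariate and each left-out library. With the replicate number as a block, a paired fit, 0 members were called in the SVZ and 0 in HC1. The same-number correlations ran from -0.26 to 0.01, and no such fit was possible in HC2, whose genotypes share no numbers. Over members within 1 Mb the median difference was 0.018 in HC1, 0.041 over both hippocampal rounds and 0.024 between regions. Leaving out single libraries gave medians of -0.037 to -0.006 in the SVZ, -0.068 to -0.034 in HC1, -0.047 to 0.019 in HC2 and -0.055 to -0.002 over both rounds.

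The count of 5 members between SVZ and HC1 knockouts became 2 without the filter, 3 over the genes kept by the authors, 3 with quantile normalization, 23 with array weights, 15 with only the compared groups fitted, 30 with both genotypes and 0 without both SVZ libraries of doubtful label. Chosen after seeing the data, the wild types alone gave 12 and the cell cycle covariate 8, with a median of 0.032. Single left-out libraries gave counts of 0 to 4 and medians of -0.046 to 0.01. Between HC2 and HC1 knockouts both genotypes gave 51 members, and the median was 0.022 without the filter, 0.181 after shifting to 1 median and 0.134 after quantile normalization. Single left-out libraries gave 27 to 36 members and medians of 0.029 to 0.117. The cause of these changes was not tested. No result changed sign under an alternative once called.

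Members below about 0.5 RPKM rest on few reads, and the 68 members not kept were not tested. Values are RPKM, so counting error was not modelled. With 3 or 4 libraries a group, the median half-width of the 95% intervals was 0.37 in the SVZ and HC1 and 0.32 in HC2.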
